A study of Drosophila melanogaster with 2 samples.

Results

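Whole embryos of Drosophila melanogaster, collected at 8 to 24 h of age, were used to map binding of nerfin-2 by chromatin immunoprecipitation and sequencing (ChIP-seq). The strain carried a transgene for nerfin-2 fused to eGFP, and the fusion protein was pulled down with an anti-GFP antibody, per the samples' description, while their antibody label names nerfin-2. The series holds 1 group of 2 biological replicates, so all embryos carried the same transgene and no untagged or untreated group enters here. The whole embryo mixes all cell types, and a peak cannot be assigned to any of them. The peaks described here lie at genes with a single compact promoter. A peak was a member when its summit lay within 500 bp of the transcription start sites (TSSs) of exactly 1 protein-coding gene, and when the annotated TSSs of that gene spanned at most 1000 bp. In the conservative list over both replicates, 992 of 2793 peaks on the main chromosome arms met this rule (35.5%). They made up 46.1% of the 2151 peaks at any promoter. They lay at 927 genes, of which 714 (77.0%) had a single annotated TSS position.

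The zinc finger protein nerfin-2 is a relative of nerfin-1, which acts in early neurons. Many constitutively active fly promoters hold the DNA replication-related element (DRE), a palindrome of 8 letters, TATCGATA, which is bound by the activator DREF. The insulator protein BEAF-32 binds clusters of CGATA, the letters at the 3′ end of the DRE. Other promoters of widely expressed genes carry the sequence read by the zinc finger protein M1BP. Compact promoters thus offer a simple setting, in which a peak has a single gene as its neighbour. Of the genes nerfin-1 and nerfin-2 themselves, neither had a member peak. This covers the member rule alone, and any peaks near them outside that rule are not described here.

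The sequences at the strongest summits show the elements that the counts below refer to. Each is 61 bp of the Release 6 assembly (dm6) centred on a summit, written 5′ to 3′ on the gene's strand. The first 5 are the strongest members with an exact DRE inside these bases, and capitals mark the DRE. Windows with more than 30 annotated exon bases were passed over.
CkIIalpha-i1, chr3L:15816926-15816986, plus strand: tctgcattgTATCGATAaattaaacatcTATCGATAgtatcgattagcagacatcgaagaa
CtsF, chr3R:5251770-5251830, minus strand: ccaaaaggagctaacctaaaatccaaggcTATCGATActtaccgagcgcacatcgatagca
ND-B14.5A, chrX:2172448-2172508, plus strand: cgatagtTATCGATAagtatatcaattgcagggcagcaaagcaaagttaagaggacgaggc
Atg14, chr3R:29116355-29116415, plus strand: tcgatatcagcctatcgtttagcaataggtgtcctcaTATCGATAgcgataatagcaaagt
eIF3f1, chr3R:4714179-4714239, minus strand: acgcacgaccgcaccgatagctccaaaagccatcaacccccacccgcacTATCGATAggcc
The next 3 are from the strongest members with no complete exact DRE in the window of 50 bp on each side of the summit. At Fit2, an exact DRE 49 bp from the summit runs past the edge of that window. Here capitals mark CGATA on either strand, which reads TATCG when it lies on the other strand.
Fit2, chr3L:17024256-17024316, plus strand: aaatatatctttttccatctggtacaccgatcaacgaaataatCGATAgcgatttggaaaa
Ccdc85, chr2L:2999186-2999246, plus strand: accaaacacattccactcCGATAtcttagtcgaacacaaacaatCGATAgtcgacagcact
CG15160, chr2L:18590822-18590882, plus strand: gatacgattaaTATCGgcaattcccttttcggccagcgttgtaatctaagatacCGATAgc
The last 3 are the strongest members with another element, in capitals. These are the M1BP core at vib, the core of Ohler motif 7 at Pep and, for the gene CG5510, the E-box CAGCTG. The cores at vib and Pep are on the strand opposite to the gene.
vib, chr3R:19226631-19226691, minus strand: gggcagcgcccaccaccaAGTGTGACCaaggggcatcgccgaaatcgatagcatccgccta
CG5510, chr3R:24169569-24169629, minus strand: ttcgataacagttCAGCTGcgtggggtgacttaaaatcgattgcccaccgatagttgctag
Pep, chr3L:17645073-17645133, minus strand: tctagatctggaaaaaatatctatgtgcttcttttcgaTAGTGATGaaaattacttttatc

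The strongest members served genes of varied roles, and each of the 15 strongest was thresholded in both replicates. Signal is the peak caller's value in the authors' lists. It has no stated unit and was used to rank peaks within a list. Fit2, which encodes a fermitin of integrin adhesion, had the highest signal at 872, with 526 in replicate 1 and 337 in replicate 2. Capr, for the RNA-binding protein caprin, followed with 775, from 393 and 377. CkIIalpha-i1, whose product binds a casein kinase subunit, had 629, from 380 and 273. CtsF, for the lysosomal protease cathepsin F, had 599, from 325 and 276. All of these values were higher in replicate 1.

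CG8617 had 598, Creld 574, Ccdc85 569 and CG15160 567. CycB, the gene of the mitotic cyclin B, had 556, with 302 in replicate 1 and 254 in replicate 2. CG9135 had 542, and ND-B14.5A, for a subunit of respiratory complex I, had 538. CG4502 with 528, CG8613 with 524 and CG13766 with 520 closed the set. Of these 15 summits, 4 had a complete exact DRE in the window of 50 bp on each side. Of the rest, 7 had a DRE with its first letter changed to C or A, and 3 had another CGATA. CG13766 was the exception, with no CGATA in its window.

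The middle of the distribution lay well below these peaks. The median signal of all members was 131, with quartiles of 90.9 and 208. The lowest values belonged to second peaks at mRpL4 (2.88), Rab19 (2.85) and Nse4 (2.53), all with no CGATA at the summit. In all, 73 members overlapped a stronger conservative peak, and their median was 15.7, against 138 for the 919 that did not. No member free of such overlap was below 38.5. A gene with more than 1 member peak was the exception, with 64 such genes against 863 with 1. At 60 of the 64, the second peak overlapped the first, and the summits lay a median of 206 bp apart. Capr had 775 and 10.5, mRpL4 had 489 and 2.88, and Hsp110 had 462 and 15.01, so the second peak was far weaker at each of these genes.

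Replicate 1 gave the higher value at most members. Replicate signals were read from each replicate's own ranked list, for the 919 members that overlapped no stronger peak. The ranked lists of both replicates held 913 of these, and 755 of them (82.7%) were higher in replicate 1, with a median ratio of 1.30. The medians were 80.9 in replicate 1 and 58.1 in replicate 2. The order of members was similar, with a Spearman rank correlation of 0.810 over 913 peaks. These peaks share their libraries and are not independent, so the correlation is a description. Summits moved by a median of 17 bp between replicates. The lists were not scaled to each other, and read depth is unknown from them.

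**Figure D1:**
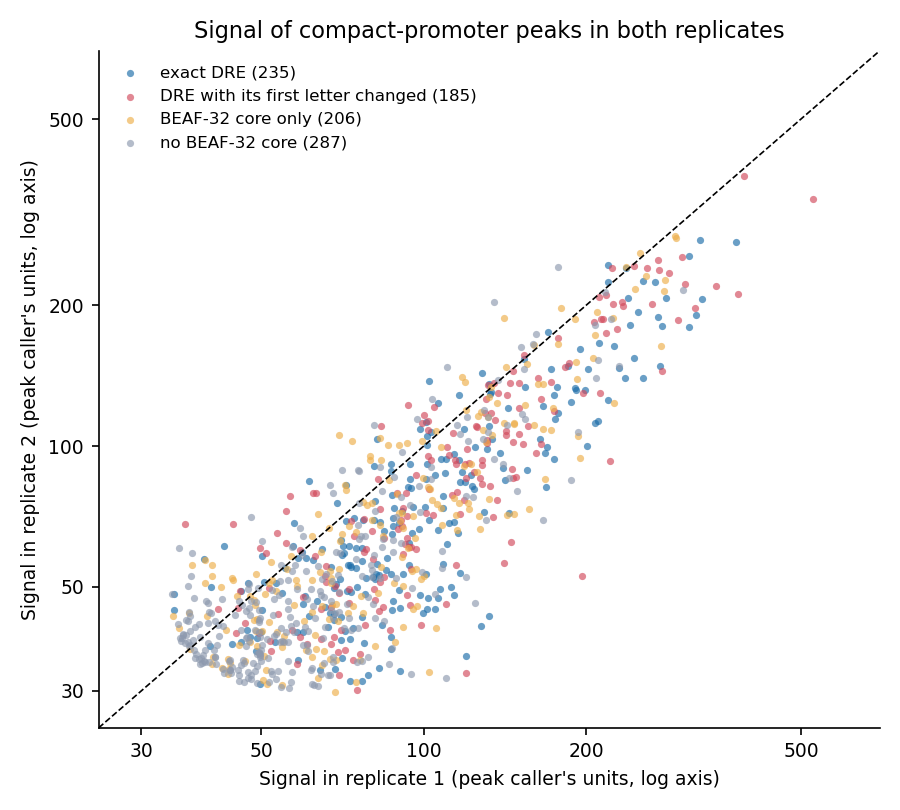
Signal of 913 member peaks in replicate 1 (horizontal, log axis) and replicate 2 (vertical, log axis), in the peak caller's units, coloured by the sequence within 50 bp of the summit. Most points (82.7%) lie below the dashed line of equal signal, and peaks with no CGATA (BEAF-32 core) crowd the low end.

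A thresholded peak of each replicate overlapped 567 members (57.2%). A further 217 members had such a peak in replicate 1 alone, 44 in replicate 2 alone and 164 in neither. The median signal fell in that order, from 191 through 106 and 96.9 to 78.7. An exact DRE lay at 28.7% of the members called in both replicates, 22.1% of those in replicate 1 alone, 22.7% in replicate 2 alone and 10.4% in neither. Members called in neither replicate were thus both weaker and poorer in the DRE. Each was still in the conservative list, which draws on the reads of both. An overlap of 1 bp was enough for these counts. For the 73 members that overlapped a stronger peak, the replicate's call may thus be that of the neighbour.

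Member summits clustered just upstream of the start site. The median position was 27 bp upstream of the nearest TSS, with quartiles at 63 bp upstream and 14 bp downstream. Of the 992 summits, 674 (67.9%) lay between 100 bp upstream and 50 bp downstream, and 68.5% were upstream. Only 86 lay over 250 bp away. Their median signal was 83.6, against 135 for the rest, and 5 of them (5.81%) had an exact DRE, against 25.7%. The member nearest the 500 bp limit was CG14636, at 498 bp with a signal of 83.6. The nearest summit outside it was that of Rcd2, at 505 bp with 179. At the limit on TSS span, Trp1 was inside with 973 bp and a signal of 248, and CG6923 was outside with 1004 bp and 104.

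**Figure D2:**
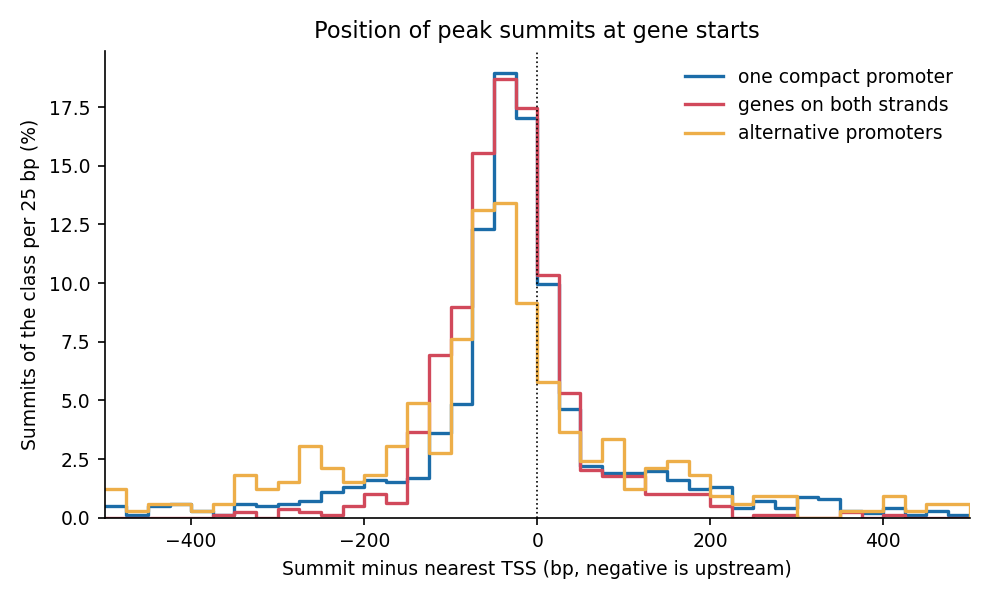
Share of summits (vertical, percent of each class) in bins of 25 bp by distance from the nearest TSS (horizontal, negative is upstream), for peaks at genes with a single compact promoter, at genes on both strands and at genes with alternative promoters. In the compact class the highest bin, from 50 to 25 bp upstream, holds 19.0% of summits.

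Members were compared with 328 peaks at single genes whose TSSs spanned over 1000 bp (alternative promoters) and with 791 peaks near TSSs of genes on both strands (divergent promoters). The divergent class rests on strand alone, and whether the genes point away from each other was not checked. The question was how a simple promoter differs from these. Two-sided Fisher's exact tests were adjusted together over 9 comparisons by the Benjamini-Hochberg method. Peaks and genes are the units, and all come from the same libraries. Intervals are at 95% and cover counting error only.

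A compact gene was less often called than a gene with alternative promoters. Of 7831 compact genes with a summit in the relaxed list, 927 had a member peak (11.8%). Of 1586 genes with alternative promoters, 285 had a peak by the same rule (18.0%). This gave an odds ratio of 0.613 (0.530 to 0.709, adjusted p 1.41e-09). With summits within 250 bp of a TSS it was 0.839 (adjusted p 0.0332). A gene was called by a summit near any of its TSSs, and TSSs of genes with alternative promoters spanned a wider stretch. The part of this in the difference was not tested. Members held a DRE more often than the peaks at alternative promoters, with 24.0% against 14.3% (odds ratio 1.89, 1.34 to 2.66, adjusted p 0.000576). In replicate 2 alone the odds ratio was 1.56 (adjusted p 0.118), and among the 1000 strongest peaks it was 1.17 (adjusted p 0.663). Summits at alternative promoters lay farther from the TSS, at a median of 79.5 bp against 49 bp for members. The part of this in the DRE difference was not tested. Members also had a call in both replicates more often, with 57.2% against 49.7% (odds ratio 1.35, 1.05 to 1.73, adjusted p 0.0316). This did not pass the threshold with a TSS span of 100 bp (odds ratio 1.20, adjusted p 0.145) or among the 1000 strongest peaks (1.76, adjusted p 0.581).

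Members and divergent peaks had close DRE shares, with 24.0% and 23.8%. The odds ratio was 1.01 with an interval of 0.813 to 1.26 (adjusted p 0.955), and differences of that size could not be told apart at this number of peaks. Divergent peaks were stronger and more often called in both replicates. Their median signal was 145, against 131 for members and 115.1 for alternative promoters. Among members, 48.6% exceeded the median of all promoter peaks, 134, against 54.7% of divergent peaks (odds ratio 0.781, 0.648 to 0.942, adjusted p 0.0181). A call in both replicates was found at 57.2% of members and 66.2% of divergent peaks (0.680, 0.560 to 0.825, adjusted p 0.000412), which did not pass among the 1000 strongest peaks (0.796, adjusted p 0.663). Upstream summits made up 68.5% and 74.6% (0.743, 0.603 to 0.915, adjusted p 0.0119). A divergent summit is measured to the nearest TSS of either gene, so its side has another meaning. Neither the signal nor the upstream difference passed in either replicate alone (adjusted p from 0.0652 to 0.679) or with a TSS span of 100 bp (0.0606 for side and 0.0672 for signal). Among the 1000 strongest peaks, both turned, with odds ratios of 1.07 for signal and 1.18 for side (adjusted p 0.663 for both).

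Against alternative promoters, neither the side of the summit (68.5% against 70.7%, odds ratio 0.902, 0.686 to 1.18, adjusted p 0.552) nor the signal passed. For signal, 48.6% of members and 43.0% of alternative-promoter peaks exceeded the median (1.25, 0.975 to 1.61, adjusted p 0.109). The signal difference did pass in replicate 1 alone (1.42, adjusted p 0.0163) and with the second thresholded list (1.52, adjusted p 0.000647).

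Of 13 motifs searched, the DRE had the highest odds ratio between called and uncalled compact genes, except among the 1000 strongest peaks, where CGATA was higher (27.5 against 19.4). The window of 50 bp on each side of the strongest summit of each gene held a DRE at 235 of 927 called genes (25.4%). It did so at 60 of 6904 genes with only a relaxed summit (0.869%). The odds ratio was 38.7 (28.9 to 52.0), with a p of 2.63e-169 adjusted over 13 motifs. It was 23.4 in replicate 2 alone, 22.3 with summits within 250 bp of a TSS and 19.4 among the 1000 strongest peaks, past the threshold in each. The reversed string of the same letters lay at 0.216% and 0.145%. Relaxed summits of uncalled genes lay farther from the TSS, at a median of 228 bp against 49 bp for members, and their windows had a median GC content of 48.5% against 42.6%. The part of these differences in the motif result was not tested with summit windows.

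A window set at the TSS avoids the choice of summit. Between 250 bp upstream and 50 bp downstream of the TSS, 658 compact genes had a DRE, and 320 of them (48.6%) had a member peak. Of 7173 genes without a DRE, 607 (8.46%) had a member peak. The odds ratio was 10.2 (8.61 to 12.2), with a p of 7.81e-138 in a two-sided Fisher's exact test. Of all protein-coding genes on the main arms, 1290 (9.24%) held a DRE in this window. The called share was 47.2% (43.2 to 51.2) of 585 genes with 1 DRE, 58.8% (47.0 to 69.7) of 68 with 2, and 4 of 5 with 3 or more. The median signal of called genes was 125 with no DRE, 151 with 1, 163 with 2 and 321 with 3 or more. The shares for 1 and for 2 or more have overlapping intervals, and that step was not tested.

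**Figure D3:**
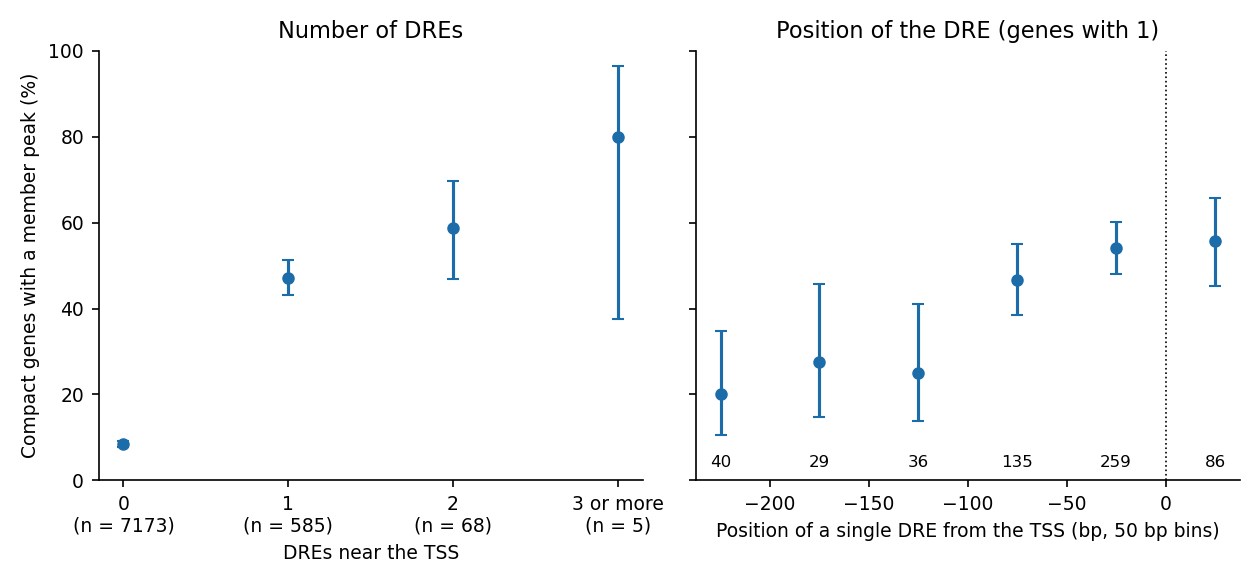
Share of compact genes with a member peak (vertical, percent, bars are 95% Wilson intervals) by the number of DREs near the TSS (left) and, for genes with 1 DRE, by its distance from the TSS in bins of 50 bp (right, numbers are genes per bin). The share rises from 8.46% with no DRE to 47.2% with 1, and bins closer than 100 bp upstream sit above those farther away.

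The called share also differed with the position of the DRE. Where the only DRE lay from 250 to 100 bp upstream, 25 of 105 genes were called (23.8%, Wilson interval 16.7 to 32.8). From 100 bp upstream to 50 bp downstream, 251 of 480 were called (52.3%, 47.8 to 56.7). In 293 called genes with exactly 1 DRE within 250 bp of the summit, the DRE had its median 8 bp upstream of the summit, and the middle 50% spanned 59 bp. Measured from the TSS, the median was 35 bp upstream and the middle 50% spanned 57 bp. It lay within 25 bp of the summit in 46.1% and of the TSS in 34.1% of these genes, and within 50 bp in 67.6% and 61.1%. The genes were chosen by a DRE within 250 bp of the summit, which bounds the offset from the summit (−246 to 208 bp). The offset from the TSS was not bounded in the same way (−554 to 184 bp). Spread and closeness can therefore not be compared between summit and TSS in this set.

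Single-letter changes to the DRE were counted in genes with no exact DRE, and a gene with several variants counts for each of them. Positions are counted from 1 at the 5′ end of TATCGATA, and since the element is a palindrome each change has a mirror image on the other strand. With T1C, 107 of 228 genes were called (46.9%, Wilson interval 40.6 to 53.4), close to the 47.2% of genes with 1 exact DRE. With T1A the share was 38.8% (34.1 to 43.8). Changes T3C, A2C, A2G, T3A and T3G gave 34.7%, 31.7%, 26.5%, 22.9% and 19.1%. A2T gave 17.2%, and T1G, at 11.1% of 63 genes (5.49 to 21.2), was the lowest of the first-letter changes. Changes at the central C, which break CGATA on both strands, gave 7.37% for C4T, 7.63% for C4A and 7.84% for C4G. Genes with neither a DRE nor any of these variants were called in 5.09% of cases (295 of 5797). These shares are a description and were not tested.

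The signal of members followed the same elements. In the window of 50 bp on each side, a complete exact DRE lay at 238 summits (24.0%), with a median signal of 156. A further 187 (18.9%) had none there but a DRE with its first letter changed to C or A. Their median was 189. Another CGATA lay at 222 (22.4%), with 136, and 345 (34.8%) had none, with 91.0. In replicate 1 the medians were 94.0, 104, 82.3 and 57.0 in the same order, and in replicate 2 they were 67.7, 79.3, 63.9 and 43.6. In each replicate, members with the changed first letter had a higher median than those with the exact palindrome, and members with no CGATA had the lowest. These kinds rest on the summit window alone. Some members of the second kind had an exact DRE outside it, such as shg at 58 bp and Capr at 198 bp from the summit. How many did was not counted. The interquartile ranges of the first and second kinds overlapped (120 to 231 and 125 to 265). A call in both replicates was found at 68.5%, 76.5%, 59.5% and 37.4%.

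When members were put in order of signal in 4 groups of 248, the exact DRE rose from 7.26% in the weakest group to 23.4% and 34.7%, and stood at 30.6% in the strongest. CGATA rose throughout, through 31.0%, 62.1%, 81.9% and 85.9%. Upstream summits rose from 41.5% to 87.1%. The weakest group includes the low second peaks described above. Groups by the signal of replicate 1, without those peaks, gave DRE shares of 10%, 27.0%, 35.8% and 30.1%. Replicate 2 gave 14.0%, 28.8%, 30.3% and 29.8%.

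**Figure D4:**
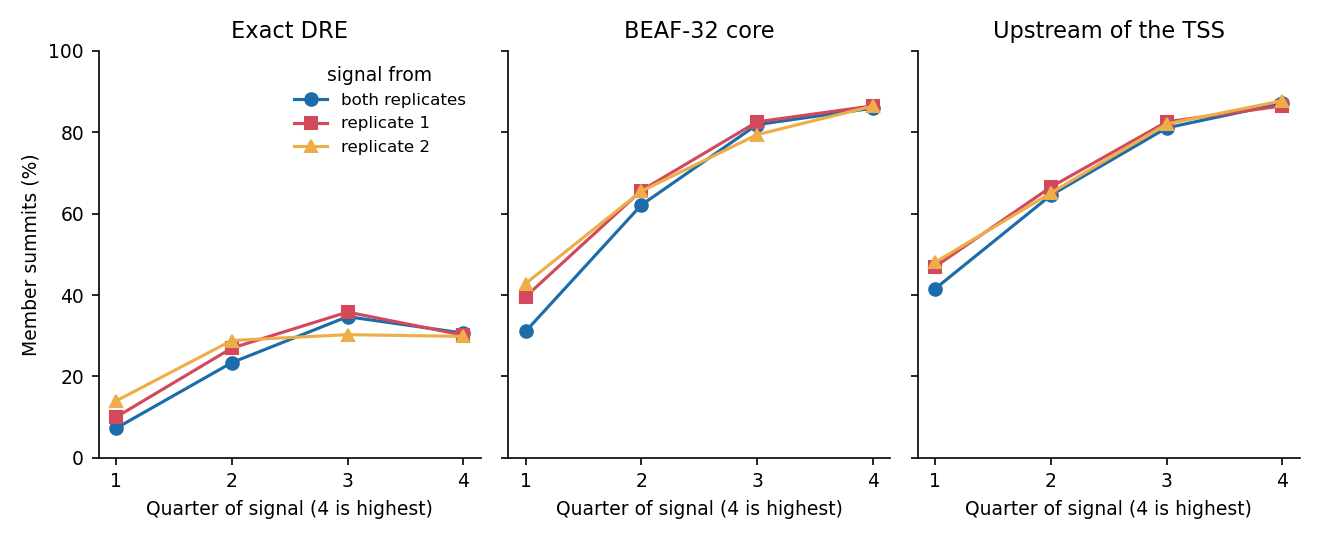
Share of member summits (vertical, percent) with an exact DRE (left), with CGATA, the BEAF-32 core (middle), and upstream of the TSS (right), in 4 groups of near-equal size by signal (horizontal, 4 is the strongest). Signal was taken from the list over both replicates, from replicate 1 or from replicate 2, and the 3 lines run close together from the second group on.

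Of 13 motifs searched on both strands in the summit windows, 6 (46.2%) were more frequent at called than at uncalled compact genes and 2 (15.4%) were less frequent. CGATA lay at 67.9% of called and 13.9% of uncalled genes (odds ratio 13.1, adjusted p 2.96e-255), and it is part of the DRE. The core of Ohler motif 7, CATCNCTA, a core promoter element, lay at 9.39% and 0.869% (11.8, adjusted p 2.73e-43). Their letters reversed also had odds ratios above 1, with 2.23 for CGATA and 2.32 for Ohler motif 7. The M1BP core, GGTCACACT, lay at 3.99% and 0.521% (7.93, adjusted p 1.10e-15), but the same letters reversed had an odds ratio of 12.3. For the M1BP core itself it was 4.59 in replicate 2 alone, 3.605 with summits within 250 bp of a TSS, 2.73 among the 1000 strongest peaks and 1.87 in the TSS window. In the TSS window the odds ratio was 6.86 for CGATA and 4.43 for Ohler motif 7. The latter had 5.71 among the 1000 strongest peaks. The E-box CAGCTG, of the kind bound by proneural factors, lay at 10.6% and 6.17% (1.80, adjusted p 4.99e-06). In the TSS window, where its shares were 18.6% and 16.2%, its difference did not pass (adjusted p 0.117). The pause button, CGNACG, lay at 13.1% and 10.6% (1.27, adjusted p 0.0397). It passed in neither replicate alone (0.995 in replicate 1, 1.09 in replicate 2) nor in the TSS window (0.980).

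Called genes had fewer of the other E-box and of the GAGA element. CAGGTG lay at 3.24% of called and 6.47% of uncalled genes (odds ratio 0.483, adjusted p 7.26e-05), and the same letters reversed had 0.371. GAGAG, the element of the GAGA factor of paused promoters, lay at 7.34% and 12.8% (0.538, adjusted p 1.17e-06). The TATA box (1.02), the Initiator core TCAGTT (0.922), CACGTG (1.54) and the CTCF core (1.33) did not pass, with adjusted p values from 0.189 to 0.847. The letters of the TATA box reversed had an odds ratio of 2.07. AGGGGGC, the core of the sites bound by INSM1, the vertebrate relative of nerfin-1, lay at 1 of 927 called genes, with an odds ratio of 0.158 (0.0217 to 1.14, adjusted p 0.0569). In the TSS window the Initiator core (0.725, adjusted p 0.000232) and the INSM1 core (0.243, adjusted p 0.0104) were also less frequent at called genes. So was the Initiator core with summits within 250 bp of a TSS (0.711, adjusted p 0.0147). The same held for the INSM1 core with the second thresholded list (0.138, adjusted p 0.0275). In replicate 1 alone the INSM1 core had an odds ratio of 0.623 (adjusted p 0.805).

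Gene lists were read beside the 11.8% of all 7831 compact genes that were called. Lists were counted without a test, and each share has a Wilson interval. Of 25 lists, 16 had a share above 11.8% and 6 had no called gene. Translation initiation and elongation had 13 of 34 (38.2%, 23.9 to 55.0), led by the initiation factor genes eIF3f1 with a signal of 492 and eIF3c with 416 and by the elongation factor gene eEF1gamma with 375. Cytoplasmic ribosomal proteins had 19 of 58 (32.8%, 22.1 to 45.6), with RpS2 at 366, RpS7 at 362 and RpS30 at 299. Mitochondrial ribosomal proteins had 11 of 37 (29.7%, 17.5 to 45.8), with mRpL4 at 489, mRpL3 at 286 and mRpL10 at 170, each with an exact DRE.

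Replication and cell cycle genes had 9 of 24 (37.5%, 21.2 to 57.3). CycB was the strongest, followed by the spindle checkpoint gene BubR1 with 214 and by Cdk2 with 201. The architectural and insulator list had 6 of 10 (60.0%, 31.3 to 83.2), with BEAF-32 itself at 197, dwg at 128 and mod(mdg4) at 125. BEAF-32 had 3 member peaks. The strongest lay 328 bp downstream of the TSS, with 90.03 in replicate 1 and 71.8 in replicate 2. A peak of 135 lay at −61 bp, with 75.9 and 88.4, and one of 45.4 at −246 bp. Germline genes had 5 of 12 (41.7%, 19.3 to 68.0), with tej at 270, tud at 180 and vls at 134, where tej and tud had summits at −428 and −426 bp from their TSS.

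**Figure D5:**
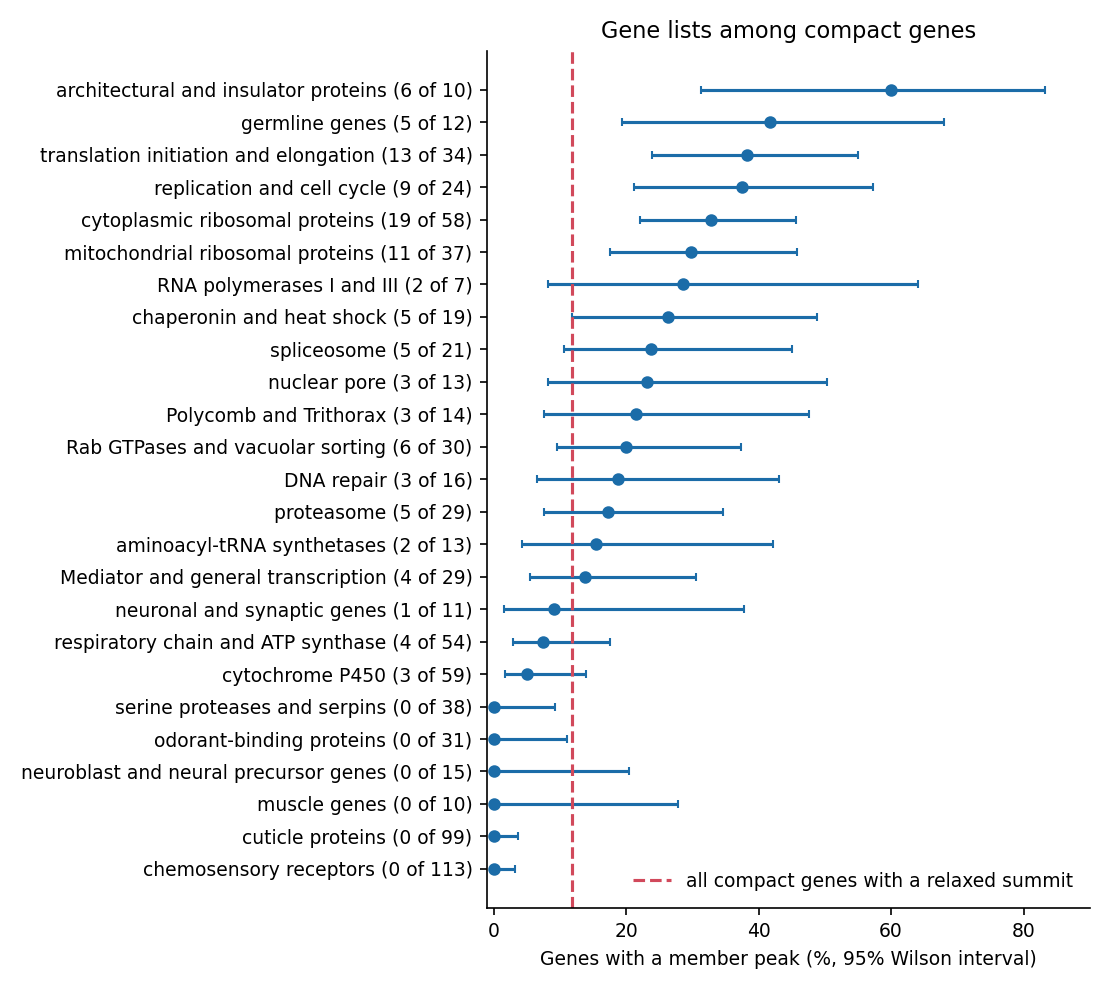
Share of compact genes with a member peak (horizontal, percent, bars are 95% Wilson intervals) for 25 gene lists, with the number called and the number that could have been called. The dashed line marks 11.8%, the share over all 7831 compact genes, and 6 lists have no called gene.

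Other lists had intervals that included that share. Heat shock and chaperonin genes had 5 of 19, with Hsp110, a partner of Hsp70, at 462, DnaJ-1 at 311 and Hsp27 at 102. The spliceosome had 5 of 21, with crn at 209, CG7483 at 190 and Sf3b3 at 90.3, all with an exact DRE. The list of Rab GTPases and vacuolar sorting had 6 of 30, with Vps35 at 284, Rab35 at 271 and Vps15 at 218. The proteasome had 5 of 29 (17.2%), with the regulatory particle genes Rpn10 at 262, Rpn12 at 185 and Rpt1 at 156. None of its 5 called genes had an exact DRE in the summit window. Rpn12 had one farther out, 212 bp upstream of its TSS. The nuclear pore had 3 of 13, with Nup358 at 408, Nup58 at 114.6 and Nup35 at 102. Polycomb and Trithorax genes had 3 of 14, with Pc at 217, Scm at 195 and Psc at 87.4. DNA repair had 3 of 16, with mre11 at 253, Ku80 at 211 and Msh6 at 94.0. The stronger of the mre11 peaks had 197 in replicate 1 and 52.7 in replicate 2.

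A few called genes each were found in further lists, small and large. RNA polymerases I and III had 2 of 7, Polr3B with 218 and Polr1E with 95.9. The aminoacyl-tRNA synthetases had 2 of 13, beta-PheRS with 198 and AspRS-m with 186. The Mediator and general transcription list had 4 of 29, with Taf9 at 215, MED14 at 120 and Taf8 at 100.5. The respiratory chain had 4 of 54 (7.41%, 2.92 to 17.6), although ND-B14.5A with 538 and UQCR-14 with 376 were strong, and ND-B14.5B had 103.

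The 6 lists with no called gene were of several kinds. They had 0 of 15 neuroblast and neural precursor genes, which allows a Wilson upper bound of 20.4%, and 0 of 10 muscle genes, with 27.8%. Of 99 cuticle protein genes 0 were called (upper bound 3.74%), and of 113 chemosensory receptor genes 0 (3.29%). The odorant-binding proteins had 0 of 31 (11.0%) and the serine proteases and serpins 0 of 38 (9.18%). Together these 6 lists held 306 compact genes that could have been called. Among 11 neuronal and synaptic genes 1 was called, Snap25, for a protein of synaptic vesicle fusion, with 105. The cytochrome P450 genes had 3 of 59, Cyp12c1 with 82.0, Cyp9f3 with 73.3 and Cyp312a1 with 70.6, all below the median member and with no CGATA.

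Called compact genes were longer than uncalled ones, with medians of 2861 and 1848.5 bp, and fewer had a single exon (7.55% against 18.5%). By chromosome, the called share was 14.6% (12.7 to 16.6) on X, 13.1% (11.4 to 14.9) on 2L, 11.3% on 2R, 10.6% on 3R and 10.3% on 3L. Chromosome 4 had 7 of 20 (35.0%, 18.1 to 56.7), and Y had 0 of 6. These shares were not tested.

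A single protein-coding neighbour did not mean that nothing else started nearby. A TSS of another protein-coding gene lay more than 500 and at most 1000 bp from 248 member summits, and at 222 of these it was on the opposite strand. Their median signal was 114, against 135 for the 744 others, and their DRE shares were 23.4% and 24.2%. A non-coding gene started within 500 bp of 62 members. At 21 of them it was nearer than the protein-coding TSS, and these were 13 non-coding RNA and 8 tRNA genes.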

How the data were processed

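The deposited files were peak lists on dm6 with signal values from the authors' peak caller, per the file headers and the labels. The summit offset (another column of the deposited lists, unit not stated) gave each summit. For the aligner, the peak caller and the use of a control, the sources used here give nothing. Read depth is unknown from the lists. The ranked lists also hold 8 columns of values per sample that were not used. Members came from the conservative list over both replicates, and the ranked list behind it served as the relaxed list. TSSs came from Ensembl release 115 and sequence from the Release 6 assembly, whose arm lengths were checked against the peaks.

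Motif windows took in 50 bp on each side of a summit. The TSS window ran from 250 bp before to 50 bp after the TSS with most transcripts. Genes entered when a relaxed summit met the member rule, and a gene was called when a conservative one did. Replicate overlap meant at least 1 bp in common. Tests of shares were Fisher's exact, two-sided (scipy 1.17.1, Python 3.11.15) with Benjamini-Hochberg adjustment and a threshold of 0.05. Intervals are Wilson's at 95% for shares and come from the log odds ratio otherwise, with 0.5 added to empty cells. Scripts were tested on simulated data. Of 250 written symbols in the gene lists, 4 were not matched. The members and lists were chosen with earlier results of these data known. Genes were named by rule, as the 15 strongest and 3 weakest members, up to 3 of each list, those at the limits of the member rule and the 3 strongest with several peaks. Of the 15 strongest, 1 is not reported here. Genes shown for their sequence were the strongest off 1 arm. Alternatives were each replicate alone, the second thresholded list, the 1000 strongest peaks, other windows and spans, and the removal of overlapping peaks. A 7-letter DRE and motif counts in the TSS window were added after seeing the data.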

Additional observations from a re-analysis of the deposited data

How the results depend on the processing

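Over 109 recomputed values of 14 results, 86 kept their direction and side of the threshold or stayed within 1.5 times. The DRE at called against uncalled compact genes, in summit and TSS windows, and the lower called share of compact genes did so in all alternatives run. Members numbered 389 among the 1000 strongest peaks, and 632 to 923 with a single replicate. Leaving out a replicate, odds ratios against alternative promoters ran from 1.56 to 1.74 for the DRE, 0.908 to 1.04 for upstream summits and 1.30 to 1.42 for signal. Against divergent promoters they ran from 0.793 to 0.924 for upstream summits and 0.838 to 0.868 for signal. With the second thresholded list, the upstream odds ratio against alternative promoters was 1.00, the signal one 1.52 and the DRE one against divergent promoters 0.944. Among the 1000 strongest peaks, the DRE odds ratio against alternative promoters was 1.17 and that of calls in both replicates 1.76, while against divergent promoters upstream was 1.18, calls in both 0.796 and signal 1.07. With a TSS span of 100 bp, upstream was 1.08 and calls in both 1.20 against alternative promoters, and upstream 0.784 and signal 0.815 against divergent ones. With 100 bp on each side of the summit, the DRE odds ratio against divergent promoters was 0.977. In the TSS window, added after seeing the data, 4 motifs were less frequent at called genes. The causes of these changes were not tested. Members were fewer with a single replicate or among the strongest peaks, and more with the second thresholded list (1126). Calls in both replicates have no value when a replicate is left out. No paired analysis was possible because there is 1 group. Read depth is unknown, so no limit from depth can be given.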
